A study of Mus musculus with 7 samples.

Results

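Polycomb repressive complex 2 (PRC2) is represented here by 9 genes: Ezh1, Ezh2, Eed, Suz12, Jarid2, Mtf2, Phf19, Rbbp4 and Rbbp7. They were found by gene symbol, and all 9 were present among the 29267 genes quantified in each of 7 RNA-seq libraries of mouse cells. The rule used the symbols and no measured value, but the members were chosen with earlier results of these data known. Each gene's level is given as TPM, a share of the transcripts in a library that is normalised for gene length and scaled to the same total in every library. Comparisons between libraries are therefore of shares, and some small differences depended on the scaling. Rescaling the libraries by their median ratio, with factors from 0.889 to 1.13, was used as an alternative.

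Every library was a single sample, so no difference has a replicate check and no p-value is given. A 95% interval given with a level or a ratio covers counting error only and was computed from the expected read counts. Mouse embryonic fibroblasts (MEFs) of the OG2 line, which carry a green fluorescent protein (GFP) reporter driven by the Oct4 promoter, had received retroviral Oct4, Sox2, Klf4 and c-Myc and were grown either in mES medium, which has serum, with LIF and vitamin C or in 5C medium, a DMEM/F12 medium with N2 supplement, LIF, bFGF and vitamin C. At passage 0 they were sorted on the reporter, giving mES-Oct4GFP+ with mES-Oct4GFP- cells from the former medium and 5C-Oct4GFP+ with 5C-Oct4GFP- cells from the latter. The 5C-Oct4GFP+ cells were also carried for 20 passages in naive medium with LIF, CHIR99021 and PD0325901, giving 5C-Oct4GFP+ (naive), or in primed medium with bFGF and activin A and then CHIR99021 and IWR-1, giving 5C-Oct4GFP+ (primed). R1 ESCs-primed are the established mouse embryonic stem cell line R1 at passage 20 in the primed condition. Passage number and medium changed together in the naive and primed libraries and cannot be told apart, and the Oct4GFP- fractions are mixtures of every cell that did not light the reporter. Because RNA was taken from whole populations, fewer cells of a type and less RNA per cell cannot be told apart in any value below.

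PRC2 is the enzyme that places methyl groups on lysine 27 of histone H3, a mark of silenced developmental genes. Its core holds a catalytic subunit, EZH1 or EZH2, with EED, which reads the mark, SUZ12, the scaffold, and RBBP4 or RBBP7, histone chaperones that also sit in other chromatin complexes. EZH2 is the more active enzyme and is typical of dividing cells, while EZH1 is often the form of resting and differentiated cells. Accessory subunits bring the core to chromatin in alternative assemblies. One assembly holds a Polycomb-like protein (MTF2, PHF19 or PHF1) and the other holds JARID2 with AEBP2. In mouse embryonic stem cells PRC2 is abundant and marks the promoters of lineage regulators, and the cells self-renew without it but differentiate poorly.

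The promoters of 5 members are shown because the levels described next divide them: Ezh2 and Ezh1, paralogs whose extremes fell in the same library, and Suz12, Eed and Mtf2, which shared their highest 3 libraries. Each runs from 250 bases before to 50 bases after the RefSeq start in GRCm38.p6, read 5′ to 3′ on the gene's strand. Capitals mark letters of 2 motif sets searched on both strands, the E2F set TTTCCCGC, TTTGGCGC, TTTCGCGC and TTTGCCGC and the hypoxia response core ACGTG and GCGTG, so a match on the opposite strand shows as its reverse complement. The E2 box CAGGTG was searched as well and is not capitalised.
Ezh2, chr6:47594981-47595280, minus strand: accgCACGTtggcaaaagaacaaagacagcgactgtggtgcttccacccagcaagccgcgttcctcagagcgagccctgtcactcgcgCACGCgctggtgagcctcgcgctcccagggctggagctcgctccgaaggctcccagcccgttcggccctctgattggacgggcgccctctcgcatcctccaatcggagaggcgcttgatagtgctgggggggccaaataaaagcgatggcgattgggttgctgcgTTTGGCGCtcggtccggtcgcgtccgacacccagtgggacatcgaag
Ezh1, chr11:101226414-101226713, minus strand: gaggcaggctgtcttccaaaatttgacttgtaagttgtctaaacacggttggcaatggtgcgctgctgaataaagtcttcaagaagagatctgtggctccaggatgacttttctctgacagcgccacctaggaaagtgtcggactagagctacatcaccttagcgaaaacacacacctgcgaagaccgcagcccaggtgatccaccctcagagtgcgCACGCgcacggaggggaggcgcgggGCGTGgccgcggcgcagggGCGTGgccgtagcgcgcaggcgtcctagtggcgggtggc
Suz12, chr11:79992856-79993155, plus strand: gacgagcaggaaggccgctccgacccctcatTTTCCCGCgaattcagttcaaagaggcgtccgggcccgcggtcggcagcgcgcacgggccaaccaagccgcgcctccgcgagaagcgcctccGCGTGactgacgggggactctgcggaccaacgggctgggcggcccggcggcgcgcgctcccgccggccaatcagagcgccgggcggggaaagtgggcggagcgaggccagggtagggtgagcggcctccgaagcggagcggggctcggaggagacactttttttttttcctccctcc
Eed, chr7:89980927-89981226, minus strand: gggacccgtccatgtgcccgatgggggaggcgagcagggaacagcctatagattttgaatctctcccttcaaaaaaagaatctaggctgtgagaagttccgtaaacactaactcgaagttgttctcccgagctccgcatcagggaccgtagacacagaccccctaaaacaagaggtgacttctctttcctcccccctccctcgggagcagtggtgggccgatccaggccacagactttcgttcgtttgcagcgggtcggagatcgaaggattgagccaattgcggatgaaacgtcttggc
Mtf2, chr5:108065424-108065723, plus strand: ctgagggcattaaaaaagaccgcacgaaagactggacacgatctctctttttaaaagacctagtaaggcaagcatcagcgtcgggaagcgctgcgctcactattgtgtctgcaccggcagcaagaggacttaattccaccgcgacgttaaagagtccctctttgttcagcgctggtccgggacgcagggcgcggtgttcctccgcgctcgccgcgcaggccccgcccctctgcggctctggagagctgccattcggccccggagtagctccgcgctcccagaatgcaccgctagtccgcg

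Ezh2 carried TTTGGCGC starting at base 4 after its start, and Suz12 carried TTTCCCGC starting 219 bases before its start. The third member with an E2F match was Phf19, with TTTCCCGC on the opposite strand 208 bases before its start. An E2F match was present in 3 of the 9 members and in 2.26% of the 32851 promoters of the same length. Of the printed promoters, those of Ezh1, Eed and Mtf2 had no letters of the E2F set. The hypoxia core was in 6 of 9 members, against 43.8% of all promoters, with 3 matches in Ezh1, 2 in Ezh2 and 6 in Jarid2. The Jarid2 window (44730524 to 44730823 on chromosome 13) lies downstream of the GENCODE start of the gene at 44729474. The E2 box was in 1 of 9 members, Ezh1, with 2 matches, against 20.2% of all promoters. These matches describe letters in the windows and were not tested against any level.

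Library totals were 6108252 to 11496615 expected counts. The 9 members were read by between 1 and 5139 counts a library, and only Phf19 fell below 10 counts, in mES-Oct4GFP+ and 5C-Oct4GFP+ (naive). Marker genes followed the labels: the summed TPM of 8 naive markers was 1845, 960 and 1536 in mES-Oct4GFP+, 5C-Oct4GFP+ and 5C-Oct4GFP+ (naive) cells and 8.70 and 22.2 in 5C-Oct4GFP+ (primed) and R1 ESCs-primed. The fibroblast markers other than Fn1 summed to 609 TPM in mES-Oct4GFP-, 292 in 5C-Oct4GFP- cells and 249 in R1 ESCs-primed, against 11.2 to 15.1 in mES-Oct4GFP+, 5C-Oct4GFP+ and 5C-Oct4GFP+ (naive) and 86.0 in 5C-Oct4GFP+ (primed). The Fn1 transcript, at 196 to 831 TPM in every library, was left out of that sum after its values were seen. The study grew cells of the primed condition on MEF feeders at first, and the part of fibroblast RNA in the PRC2 values was not tested.

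The catalytic subunits had opposite extremes in the mES-Oct4GFP- library. Ezh2 was at 207 TPM in mES-Oct4GFP+, 165 in 5C-Oct4GFP+ (naive), 153 in 5C-Oct4GFP-, 152 in R1 ESCs-primed, 149 in 5C-Oct4GFP+ (primed), 144 in 5C-Oct4GFP+ and 80.9 in mES-Oct4GFP-. Apart from the highest and the lowest library, Ezh2 thus lay within a narrow band, and from 5C-Oct4GFP- down to 5C-Oct4GFP+ no neighbours in the order differed beyond counting error. Ezh1 was at 68.5 TPM in mES-Oct4GFP-, 38.9 in 5C-Oct4GFP-, 27.5 for mES-Oct4GFP+, 26.6 for 5C-Oct4GFP+, 23.3 for 5C-Oct4GFP+ (naive), 12 for 5C-Oct4GFP+ (primed) and 10.4 for R1 ESCs-primed. Both Oct4GFP- libraries were highest and both primed libraries lowest for Ezh1, a 6.58-fold range against 2.56-fold for Ezh2. The 3 middle libraries had neighbours that did not differ beyond counting error, as did the 2 primed ones. Across the middle 3, 5C-Oct4GFP+ (naive) was below mES-Oct4GFP+ by more than counting error (ratio 0.847, 0.726 to 0.988). Ezh1 lies on chromosome 11 (101191115 to 101226463, minus strand) and Ezh2 on chromosome 6 (47530139 to 47595341, minus strand) in GRCm38.

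The core partners Eed and Suz12 were high in the 3 Oct4GFP+ libraries not put through the primed condition. Eed was at 160 TPM in mES-Oct4GFP+, 156 in 5C-Oct4GFP+ (naive) and 148 in 5C-Oct4GFP+, with no neighbours separated beyond counting error. It was at 84.0 TPM in R1 ESCs-primed, 69.8 in 5C-Oct4GFP+ (primed), 64.9 in 5C-Oct4GFP- and 42.4 in mES-Oct4GFP-. Suz12 was at 239 TPM in mES-Oct4GFP+, 184 in 5C-Oct4GFP+ (naive) and 173 in 5C-Oct4GFP+. Its lower libraries were 5C-Oct4GFP- at 84.5 TPM, mES-Oct4GFP- at 82.7, R1 ESCs-primed at 61.2 and 5C-Oct4GFP+ (primed) at 59.2. The lowest Suz12 was therefore in the primed libraries and the lowest Eed in the mES-Oct4GFP- cells. In R1 ESCs-primed and 5C-Oct4GFP+ (primed) Suz12 did not differ beyond counting error. The same held for the pair of Oct4GFP- libraries. Eed lies on chromosome 7 (89954654 to 89980983, minus strand) and Suz12 on chromosome 11 (79993106 to 80034123, plus strand).

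The histone chaperones were the most abundant members and varied least. Rbbp7 was at 445 TPM in R1 ESCs-primed, 434 in 5C-Oct4GFP+ (primed), 398 in mES-Oct4GFP+, 391 in 5C-Oct4GFP+ (naive), 373 in mES-Oct4GFP-, 306 for 5C-Oct4GFP- and 305 for 5C-Oct4GFP+, a 1.46-fold range. Its lowest 2 libraries were both cells just out of 5C medium. Rbbp4 was at 378 TPM in 5C-Oct4GFP+ (naive), 374 in mES-Oct4GFP+, 295 in R1 ESCs-primed, 259 in 5C-Oct4GFP+ (primed), 235 in 5C-Oct4GFP+, 209 for mES-Oct4GFP- and 201 for 5C-Oct4GFP-, a 1.88-fold range. Here 5C-Oct4GFP+ (naive) and mES-Oct4GFP+ stood above the others and did not differ from each other beyond counting error. Rbbp4 lies on chromosome 4 (129307100 to 129335370, minus strand) and Rbbp7 on chromosome X (162760402 to 162779092, plus strand).

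Of the accessory members, Mtf2 resembled Suz12 and Eed. Mtf2, a Polycomb-like protein that recruits PRC2 to unmethylated CpG islands, was at 216 TPM in mES-Oct4GFP+, 177 in 5C-Oct4GFP+ (naive) and 119 in 5C-Oct4GFP+. It was at 76.0 TPM in R1 ESCs-primed, 66.8 in 5C-Oct4GFP+ (primed), 43.8 in 5C-Oct4GFP- and 34.2 in mES-Oct4GFP-. Every step in this order exceeded counting error, and the whole range was 6.31-fold. Jarid2, a subunit that helps to bring PRC2 to chromatin and to start its activity, peaked elsewhere. It was at 158 TPM in 5C-Oct4GFP+, 91.0 in 5C-Oct4GFP+ (primed), 87.0 in R1 ESCs-primed, 83.0 in mES-Oct4GFP+, 61.6 in 5C-Oct4GFP+ (naive), 57.8 in 5C-Oct4GFP- and 54.6 in mES-Oct4GFP-. The 5C-Oct4GFP+ library stood alone at the top, 1.73-fold (1.66 to 1.81) above the next. The other libraries lay from 91.0 to 83.0 and from 61.6 to 54.6 TPM. Within each range neighbours did not differ beyond counting error, but the intervals of the levels at its ends did not overlap. These were 87.8 to 94.2 against 78.9 to 87.1 TPM, and 58.6 to 64.7 against 51.6 to 57.6. Mtf2 lies on chromosome 5 (108065674 to 108109004, plus strand) and Jarid2 on chromosome 13 (44729474 to 44921643, plus strand).

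Phf19, the other Polycomb-like member, was the rarest and had the widest range. Its level was 14.1 TPM in 5C-Oct4GFP+ (283 counts), 4.86 in 5C-Oct4GFP- (66 counts), 3.90 in R1 ESCs-primed (49 counts), 3.42 in 5C-Oct4GFP+ (primed) (72 counts) and 2.0 in mES-Oct4GFP- (31 counts). It was 0.16 TPM in mES-Oct4GFP+ and 0.07 in 5C-Oct4GFP+ (naive), from 2 counts and 1 count. The libraries with the most Mtf2 thus had the least Phf19, and Phf19 shared its highest library with Jarid2. Phf19 lies on chromosome 2 (34893757 to 34914026, minus strand).

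**Figure D1:**
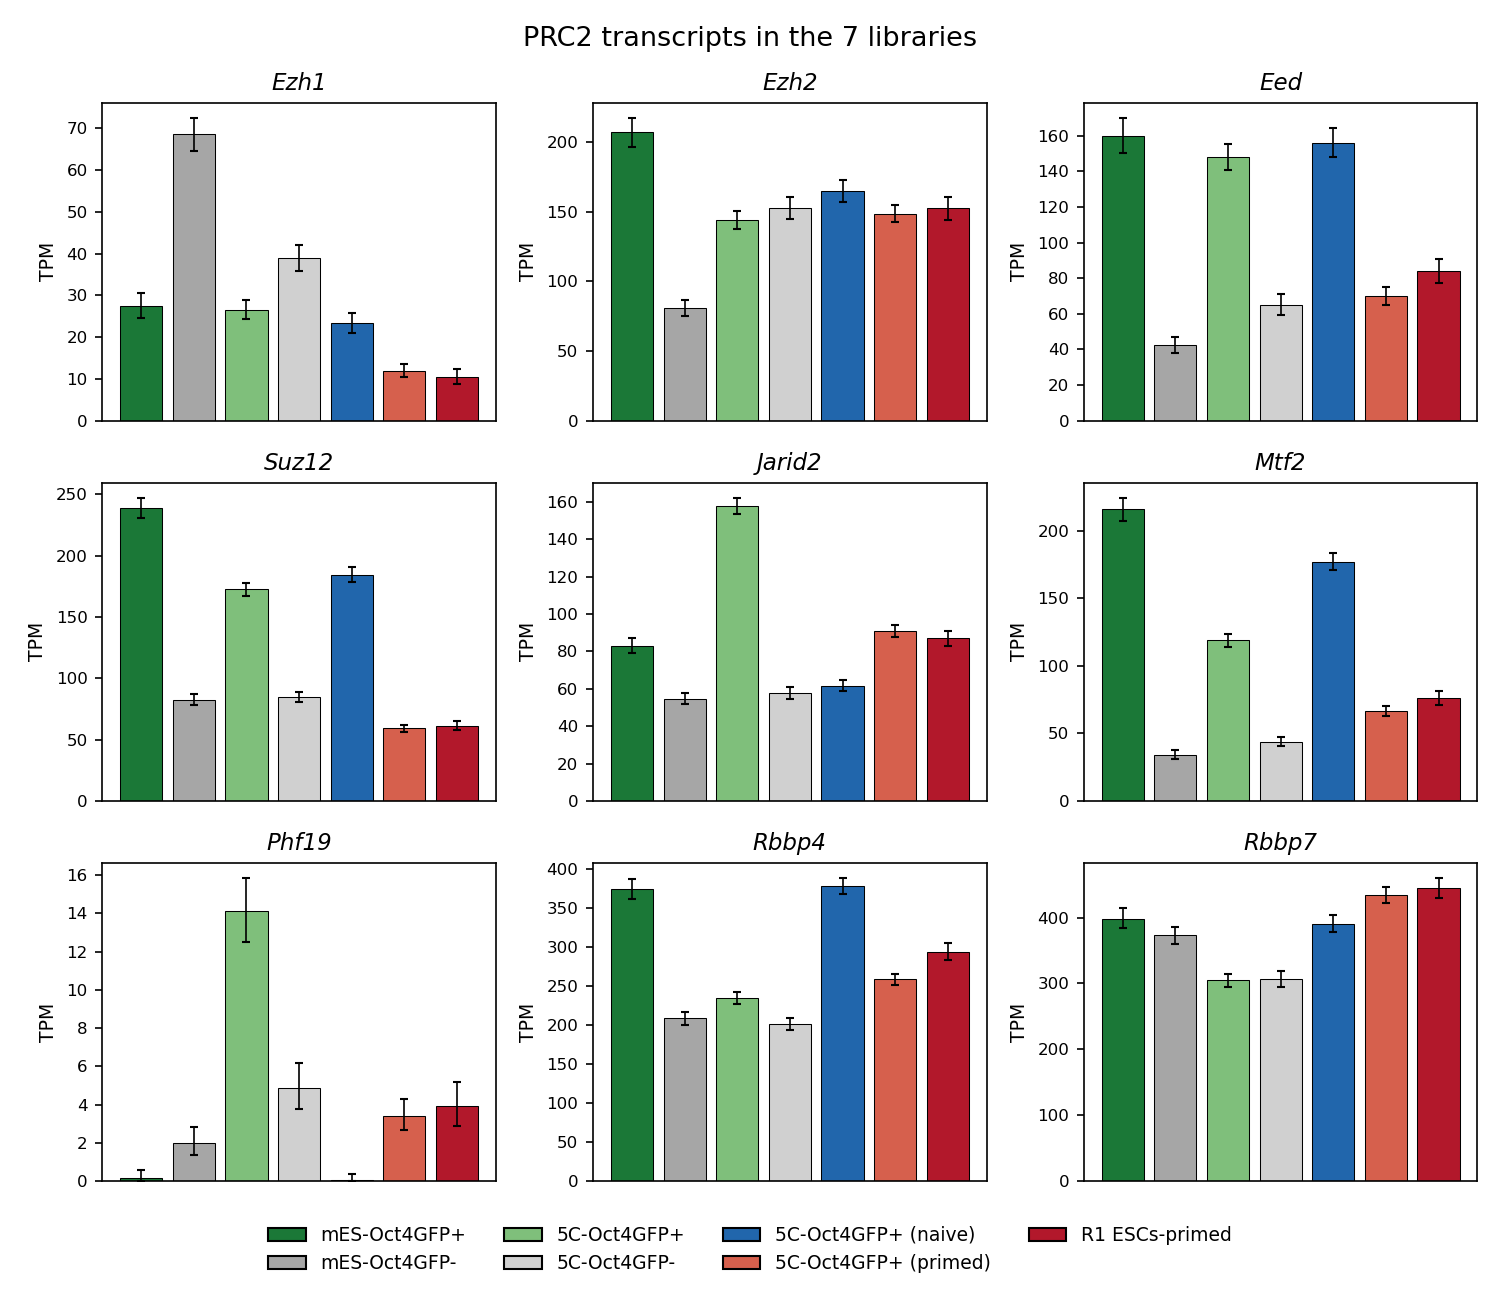
TPM of each of the 9 PRC2 members (vertical axes from 0, a scale of its own in each panel) in the 7 libraries, 1 bar a library, coloured as in the key; error bars are exact 95% Poisson intervals and cover counting error only. Eed, Suz12 and Mtf2 are highest in mES-Oct4GFP+, 5C-Oct4GFP+ (naive) and 5C-Oct4GFP+, Jarid2 and Phf19 peak in 5C-Oct4GFP+ at 158 and 14.1 TPM, and Ezh1 is highest in mES-Oct4GFP- at 68.5 TPM.

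A total of 9 comparisons between libraries were made, many of which share a library. Differences are of log2(TPM + 1), which understates the change of low genes such as Phf19, and ratios are of TPM itself. A member was counted as higher or lower at 1.5-fold on the log scale. The share of all genes with at least 1 TPM in either library that passed the same fold is given beside each count as the background.

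The first comparison asked how the sorted Oct4GFP+ cells differed from the Oct4GFP- cells of the same medium. In mES medium, the mES-Oct4GFP+ library had more Mtf2 (ratio 6.31, 5.70 to 6.99), Eed (3.77, 3.35 to 4.26), Suz12 (2.89, 2.72 to 3.08), Ezh2 (2.56, 2.35 to 2.79), Rbbp4 (1.79, 1.70 to 1.89) and Jarid2 (1.52, 1.41 to 1.64) than mES-Oct4GFP-. Ezh1 was lower (0.401, 0.354 to 0.454), and so was Phf19 (0.0800, 0.00928 to 0.314, from 2 counts against 31). So 6 of 9 members were higher, against 27.5% of all genes, and 2 were lower, against 38% of all genes. The members' median difference was 0.84, beside -0.15 over all genes. The 15 proliferation genes differed in the same direction, with 14 of 15 higher and a median of 1.70, and 9 of 10 fibroblast genes were lower. The part of cell division or of fibroblast RNA in the member differences was not tested.

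The same sort was made in 5C medium. The 5C-Oct4GFP+ library had more Phf19 (2.90, 2.21 to 3.85), Jarid2 (2.73, 2.57 to 2.90), Mtf2 (2.72, 2.49 to 2.98), Eed (2.28, 2.05 to 2.53) and Suz12 (2.04, 1.92 to 2.17) than 5C-Oct4GFP-. Jarid2, Mtf2, Eed and Suz12 were also among those higher in mES-Oct4GFP+, while Phf19 was lower there. Thus 5 of 9 members were higher, against 14.7% of all genes, and 0 were lower, against 35.5%. With the libraries rescaled by their median ratio these backgrounds were 20.7% and 29%, and the member counts stayed at 5 and 0. Ezh2 did not differ beyond counting error (0.944, 0.881 to 1.01) and its sign changed with the scaling, while Ezh1 was below the fold used (0.683, 0.608 to 0.767). The median member difference was 1.02, beside -0.25 over all genes. The proliferation genes had a median of 0.34, with 4 of 15 higher and 1 lower, and 10 of 10 fibroblast genes were lower.

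The next comparison asked how the media differed among cells that did not light the reporter. Beside the higher Ezh2 of the 5C-Oct4GFP- library (1.89, 1.73 to 2.06), Ezh1 was lower (0.568, 0.515 to 0.627), and Phf19 (2.43, 1.56 to 3.85) and Eed (1.53, 1.33 to 1.76) were higher than in mES-Oct4GFP-. Eed was at the edge of the fold used and did not pass it after median-ratio rescaling or as counts without a length term. Suz12 (1.02, 0.95 to 1.10), Jarid2 (1.06, 0.980 to 1.14) and Rbbp4 (0.962, 0.910 to 1.02) did not differ beyond counting error. The count was 3 higher, against 19.9% of all genes, and 1 lower, against 19.1%. The median member difference was 0.08, beside 0.03 over all genes. All 15 proliferation genes were higher in 5C-Oct4GFP-, with a median of 1.18, and their summed TPM was 3205 against 1409. The 10 fibroblast genes had a median of -1.04, with 6 lower and 1 higher. The higher one was Thy1, at 53.3 against 8.73 TPM (6.10, 4.67 to 8.09). The 6 trophoblast and endoderm genes were lower in all 6 cases, with summed levels of 226 against 802 TPM and Krt8, an epithelial keratin, at 221 against 748. The 10 pluripotent genes summed to 525 against 215 TPM, with Nanog at 120 against 17.1. The part of any of these lists in the Ezh2 and Ezh1 values was not tested.

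Among cells that lit the reporter, Jarid2 and Phf19 were higher and Mtf2 and Rbbp4 were lower in 5C than in mES medium. In 5C-Oct4GFP+ compared with mES-Oct4GFP+, Jarid2 was higher (1.90, 1.80 to 2.01), as was Phf19 (88.1, 24.2 to 731, against 2 counts). Mtf2 (0.551, 0.521 to 0.583) and Rbbp4 (0.628, 0.599 to 0.658) were lower. Ezh2 (0.697, 0.651 to 0.746), Suz12 (0.723, 0.691 to 0.757) and Rbbp7 (0.765, 0.727 to 0.805) were lower by more than counting error but by less than the fold used, and Ezh1 did not differ beyond it (0.967, 0.842 to 1.11). The counts of 2 higher and 2 lower stood beside 21.9% and 24.5% of all genes, so they were close to the background. Over the 9 members the median difference was -0.39, beside -0.06 over all genes, and the proliferation genes had a median of -0.26.

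After long culture of 5C-Oct4GFP+ cells in naive medium, Jarid2 and Phf19 were lower and Rbbp4 was higher. In 5C-Oct4GFP+ (naive) compared with 5C-Oct4GFP+, Eed (1.06, 0.982 to 1.13) and Ezh1 (0.876, 0.765 to 1.00) did not differ beyond counting error, and Suz12 (1.07, 1.02 to 1.12) and Ezh2 (1.14, 1.07 to 1.22) differed by little more than it. Jarid2 was lower (0.391, 0.369 to 0.413), and so was Phf19 (0.00497, 0.000125 to 0.0279, from 1 count against 283). Rbbp4 was higher (1.61, 1.54 to 1.68), and Rbbp7 was at 1.28 (1.22 to 1.34), short of the fold used. Mtf2 (1.49, 1.41 to 1.57) was just under the fold used and passed it after median-ratio rescaling. The count was 1 higher, against 18.3% of all genes, and 2 lower, against 28.6%, with a median member difference of 0.09 beside -0.10 over all genes.

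The naive cells were also set against the mES-Oct4GFP+ cells, the other library with high naive markers and low primed ones. Between 5C-Oct4GFP+ (naive) and mES-Oct4GFP+, 0 of 9 members were higher or lower by the fold used, against 6.1% of all genes higher and 18.2% lower (8.59% and 13.2% after median-ratio rescaling), a count near the background. Phf19 did not pass the filter there, with 1 and 2 counts, and the other 8 did. By more than counting error but less than the fold used, Jarid2 (0.743, 0.692 to 0.797), Suz12 (0.772, 0.736 to 0.809), Ezh2 (0.796, 0.743 to 0.853), Mtf2 (0.820, 0.778 to 0.865) and Ezh1 (0.847, 0.726 to 0.988) were lower. In contrast, Rbbp4 (1.01, 0.967 to 1.06), Rbbp7 (0.981, 0.933 to 1.03) and Eed (0.975, 0.899 to 1.06) did not differ beyond counting error. Their median, Phf19 included, was -0.23, beside -0.16 over all genes.

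In the primed condition Suz12, Eed and Ezh1 were lower and Ezh2 was not. In 5C-Oct4GFP+ (primed) compared with 5C-Oct4GFP+, Suz12 (0.343, 0.323 to 0.364), Ezh1 (0.451, 0.388 to 0.524), Eed (0.473, 0.434 to 0.514), Mtf2 (0.562, 0.524 to 0.601), Jarid2 (0.577, 0.551 to 0.603) and Phf19 (0.243, 0.185 to 0.315) were lower. Ezh2 did not differ beyond counting error (1.03, 0.969 to 1.10), and Rbbp4 (1.10, 1.06 to 1.15) and Rbbp7 (1.42, 1.36 to 1.49) were slightly higher. This made 6 of 9 lower, against 24.3% of all genes, and 0 higher, against 24.2%. The median member difference was -0.82, beside 0.06 over all genes. None of the 15 proliferation genes passed the fold in either direction, and their median was 0.18. Of the 10 fibroblast genes, 9 were higher in the primed library.

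Set against the naive cells, the primed cells had less Suz12, Mtf2, Eed and Ezh1 and more Phf19. In 5C-Oct4GFP+ (primed) compared with 5C-Oct4GFP+ (naive), Suz12 (0.321, 0.302 to 0.341), Mtf2 (0.377, 0.353 to 0.403), Eed (0.448, 0.411 to 0.488) and Ezh1 (0.515, 0.436 to 0.607) were lower. Phf19 was higher (48.9, 8.49 to 1956, against 1 count). Jarid2 was at 1.48 (1.39 to 1.57) and Rbbp4 at 0.684 (0.658 to 0.712), both short of the fold used, and Ezh2 was at 0.902 (0.847 to 0.961). The count was 1 higher, against 32.6% of all genes, and 4 lower, against 24.4%, with a median member difference of -0.55 beside 0.14 over all genes.

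The 2 primed libraries came from different cell lines. Between 5C-Oct4GFP+ (primed) and R1 ESCs-primed, 0 of 9 members were higher, against 6.73% of all genes, and 0 were lower, against 11.1%, which is near the background of a pair of libraries with few differences in all. The intervals of 3 ratios excluded 1, those of Eed (0.831, 0.748 to 0.925), Mtf2 (0.879, 0.806 to 0.959) and Rbbp4 (0.878, 0.840 to 0.918). The median member difference was -0.05, beside -0.03 over all genes. The fibroblast genes differed between them, with 9 of 10 lower in 5C-Oct4GFP+ (primed) and a median of -1.52.

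**Figure D2:**
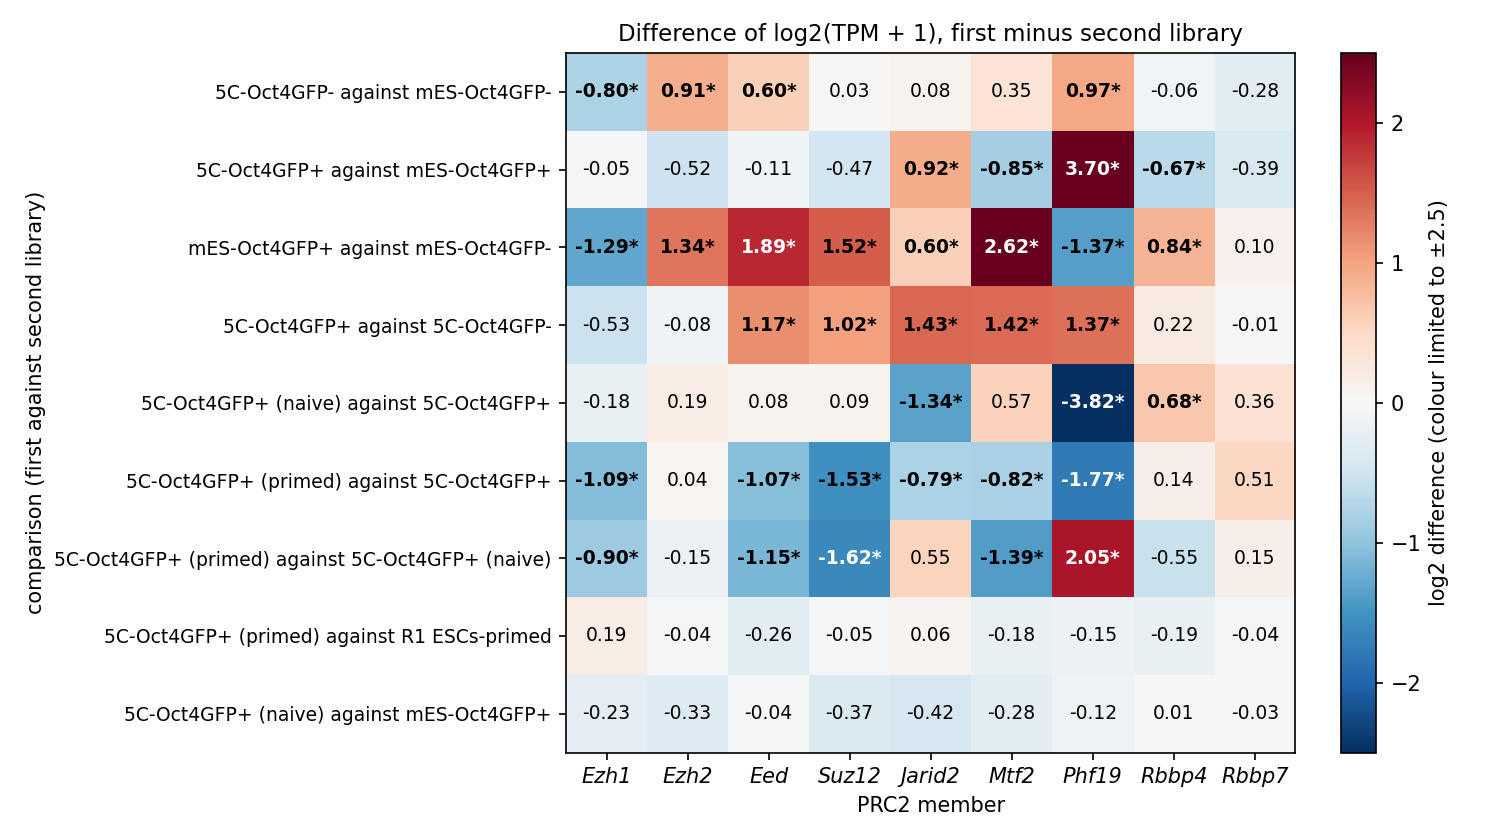
Difference of log2(TPM + 1), first minus second library, of the 9 PRC2 members (columns) in the 9 comparisons (rows). Red is higher and blue lower in the first library, a star marks at least 1.5-fold, and the colour is limited to 2.5. The bottom 2 rows have no star, and Ezh2 is starred only in the comparisons that include mES-Oct4GFP-.

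EZH1 and EZH2 are alternatives for the same place in the complex, as are RBBP4 and RBBP7 and the Polycomb-like proteins. Their shares of the summed TPM were therefore also computed. Shares that set Jarid2 beside Mtf2 or Aebp2 only compare RNA levels, since JARID2 and MTF2 belong to different assemblies and JARID2 and AEBP2 to the same one. Ezh1 made up 45.8% (43.6 to 48.1) of Ezh1 and Ezh2 together in mES-Oct4GFP- and 20.3% (18.8 to 21.9) in 5C-Oct4GFP-. It made up 15.6% (14.3 to 16.8) in 5C-Oct4GFP+, 12.4% (11.2 to 13.7) in 5C-Oct4GFP+ (naive), 11.7% (10.5 to 13) in mES-Oct4GFP+, 7.46% (6.59 to 8.42) in 5C-Oct4GFP+ (primed) and 6.40% (5.40 to 7.51) in R1 ESCs-primed. The share was thus highest in both Oct4GFP- libraries, and mES-Oct4GFP- stood far from the others. Rbbp7 made up 50.8% (49.7 to 51.9) of Rbbp4 and Rbbp7 in 5C-Oct4GFP+ (naive) and 51.6% (50.3 to 52.8) in mES-Oct4GFP+, and between 56.4% and 64.1% in the other 5 libraries.

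Jarid2 was lower than Mtf2 in mES-Oct4GFP+ and 5C-Oct4GFP+ (naive) alone of the 7 libraries. Jarid2 made up 27.8% (26.5 to 29.0) of Jarid2 and Mtf2 in mES-Oct4GFP+ and 25.8% (24.7 to 27) in 5C-Oct4GFP+ (naive). In the other 5 libraries it made up between 53.4% and 61.4%, with 57.0% (55.8 to 58.2) in 5C-Oct4GFP+ and 56.9% (54.5 to 59.3) in 5C-Oct4GFP-. The same 2 libraries were lowest for the wider share of Jarid2 and Aebp2 in the sum of Jarid2, Aebp2, Mtf2, Phf19 and Phf1, at 52.5% (51.1 to 53.8) and 54.8% (53.6 to 56.1). That share was highest in mES-Oct4GFP-, at 78.9% (77.4 to 80.2), and next in 5C-Oct4GFP-, at 71.9% (70.4 to 73.5). Among the Polycomb-like genes, Mtf2 made up 95.6% (94.6 to 96.5) in mES-Oct4GFP+ and 96.3% (95.4 to 97.1) in 5C-Oct4GFP+ (naive) but 60.2% (56.4 to 64.0) in mES-Oct4GFP- and 64.0% (60.5 to 67.3) in 5C-Oct4GFP-. Phf1 took most of the remainder in the Oct4GFP- libraries, at 36.2% (32.5 to 40.1) and 28.9% (25.7 to 32.3), and Phf19 was at most 9.91% (8.84 to 11.1), in 5C-Oct4GFP+. RNA shares say nothing of the amounts of protein or of assembled complex.

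**Figure D3:**
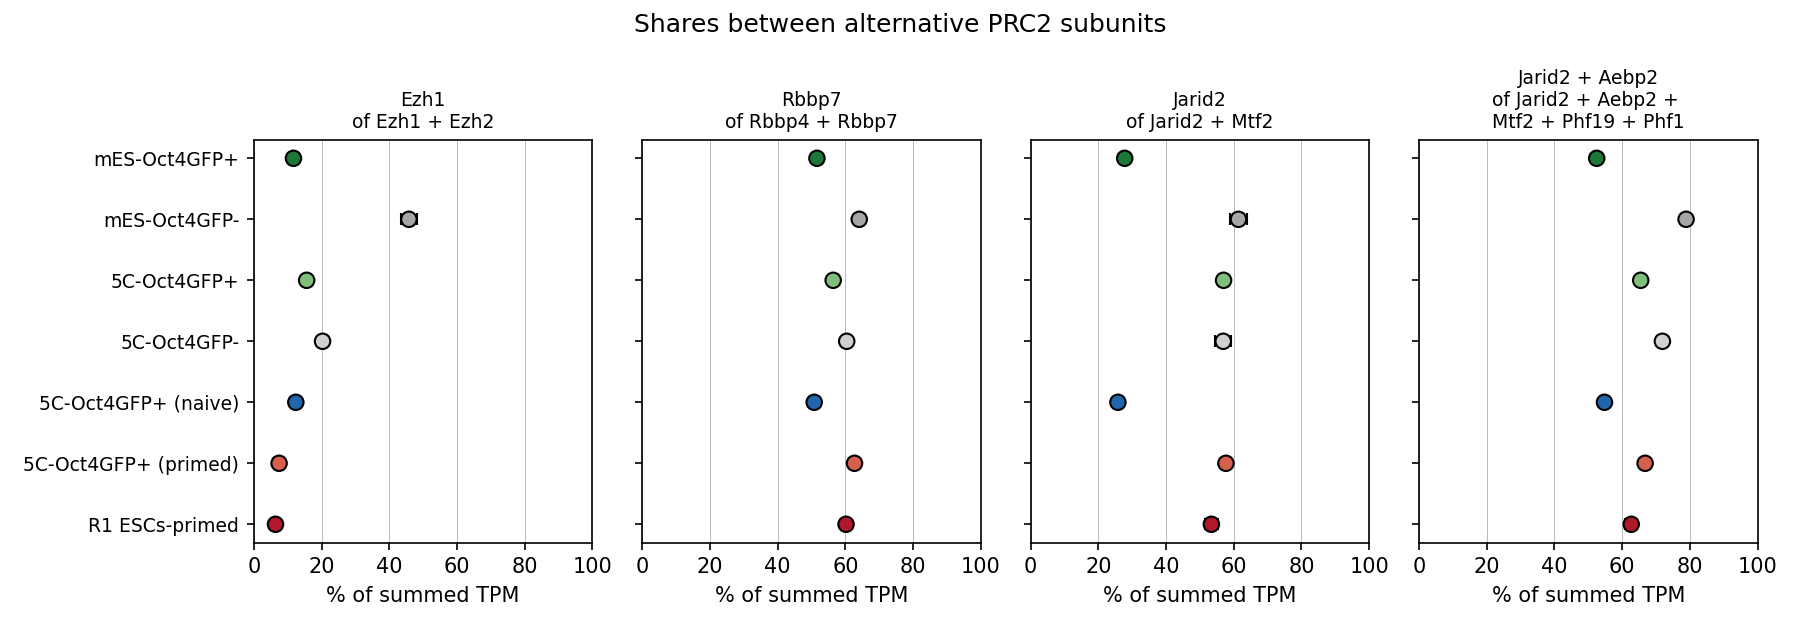
Share of summed TPM (horizontal axes, 0 to 100%) taken by the named subunit or subunits in each of the 7 libraries. Bars are 95% intervals for counting error and are mostly narrower than the points. They are exact for the pairs of genes and approximate for the wider share. Ezh1 reaches 45.8% of Ezh1 and Ezh2 in mES-Oct4GFP-, and Jarid2 is 27.8% and 25.8% of Jarid2 and Mtf2 in mES-Oct4GFP+ and 5C-Oct4GFP+ (naive) against 53.4% to 61.4% elsewhere.

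The other accessory subunits, 8 genes, followed several patterns. Epop, which links PRC2 to elongin proteins, was at 147 TPM in 5C-Oct4GFP+ (naive), 136 in mES-Oct4GFP+ and 98.7 in 5C-Oct4GFP+, and between 40.9 and 61.3 in the other 4 libraries. Its upper 3 libraries were those of Suz12, Eed and Mtf2. Aebp2, the DNA-binding partner of JARID2, was at 166 TPM in mES-Oct4GFP+, 162 in 5C-Oct4GFP+ (naive), 157 for mES-Oct4GFP-, 118 for 5C-Oct4GFP-, 112 for 5C-Oct4GFP+, 65.3 for 5C-Oct4GFP+ (primed) and 62.0 for R1 ESCs-primed. Aebp2 was thus not highest where Jarid2 was, and Jarid2 made up 58.4% (57.0 to 59.8) of the pair in 5C-Oct4GFP+ against 33.3% (31.7 to 35.0) in mES-Oct4GFP+. As counts without a length term these shares were 76.2% and 54.1%, since the Jarid2 transcripts are longer. Phf1 was at 20.6 TPM in mES-Oct4GFP- and 19.8 in 5C-Oct4GFP- and between 6.74 and 9.69 in the others. No neighbours in the order of those others differed beyond counting error. The 5C-Oct4GFP+ (naive) library was nevertheless below mES-Oct4GFP+ (ratio 0.696, 0.499 to 0.970) and 5C-Oct4GFP+ (0.731, 0.541 to 0.98). Ezhip, which inhibits EZH2, was at 3.76 TPM in mES-Oct4GFP+ and 2.67 in 5C-Oct4GFP+ (naive), between 0.13 and 0.60 in 4 libraries and at 0 in mES-Oct4GFP-. Lcor and Lcorl stayed between 2.64 and 8.40 TPM, and the elongin genes Elob and Eloc, which also serve elsewhere, between 246 and 908. Of the 8 genes, 3 were higher and 3 lower in mES-Oct4GFP+ against mES-Oct4GFP-, close to the background of 27.5% and 38%. In 5C-Oct4GFP- against mES-Oct4GFP-, 7 passed the filter and 0 were higher or lower, against 19.9% and 19.1% of all genes. Epop (ratio 1.499, 1.32 to 1.71) was just under the fold used there. Aebp2 (0.748, 0.693 to 0.806) was lower by more than counting error but by less than the fold used.

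The demethylases that remove the PRC2 mark are KDM6A and KDM6B. Kdm6b was at 43.1 TPM in mES-Oct4GFP-, 35.0 for 5C-Oct4GFP-, 31.6 for 5C-Oct4GFP+ (primed), 28.1 in 5C-Oct4GFP+, 26.2 in R1 ESCs-primed, 22.5 in mES-Oct4GFP+ and 22.4 in 5C-Oct4GFP+ (naive). As with Ezh1, the Oct4GFP- libraries were highest. Kdm6a was at 38.7 TPM in 5C-Oct4GFP+, 34.9 in 5C-Oct4GFP-, 34.6 in mES-Oct4GFP-, 31.2 in R1 ESCs-primed, 27.2 in mES-Oct4GFP+, 22.0 in 5C-Oct4GFP+ (naive) and 16.6 in 5C-Oct4GFP+ (primed). For 5C-Oct4GFP+ (primed) over R1 ESCs-primed the ratio was 0.532 (0.474 to 0.596) for Kdm6a and 1.20 (1.09 to 1.32) for Kdm6b.

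The level of Ezh2 and the proliferation genes were both lowest in mES-Oct4GFP-. The summed TPM of the 15 proliferation genes was 1409 there, 3205 in 5C-Oct4GFP- and 3974 to 4547 in the other 5. The highest sum, 4547 TPM, and the highest Ezh2, 207 TPM, were both those of mES-Oct4GFP+. R1 ESCs-primed had a sum of 4517 TPM with 152 TPM of Ezh2. Against 5C-Oct4GFP-, the 5C-Oct4GFP+ library had 4 of 15 proliferation genes higher and 1 lower. Ezh2 did not differ beyond counting error between these libraries. Ezh1 and the summed fibroblast genes other than Fn1 were both highest for mES-Oct4GFP-, at 68.5 and 609 TPM. The 5C-Oct4GFP- library was next for both, at 38.9 and 292 TPM. R1 ESCs-primed had the lowest Ezh1, 10.4 TPM, with 249 TPM of the fibroblast genes. The part of either gene list in the PRC2 levels was not tested.

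**Figure D4:**
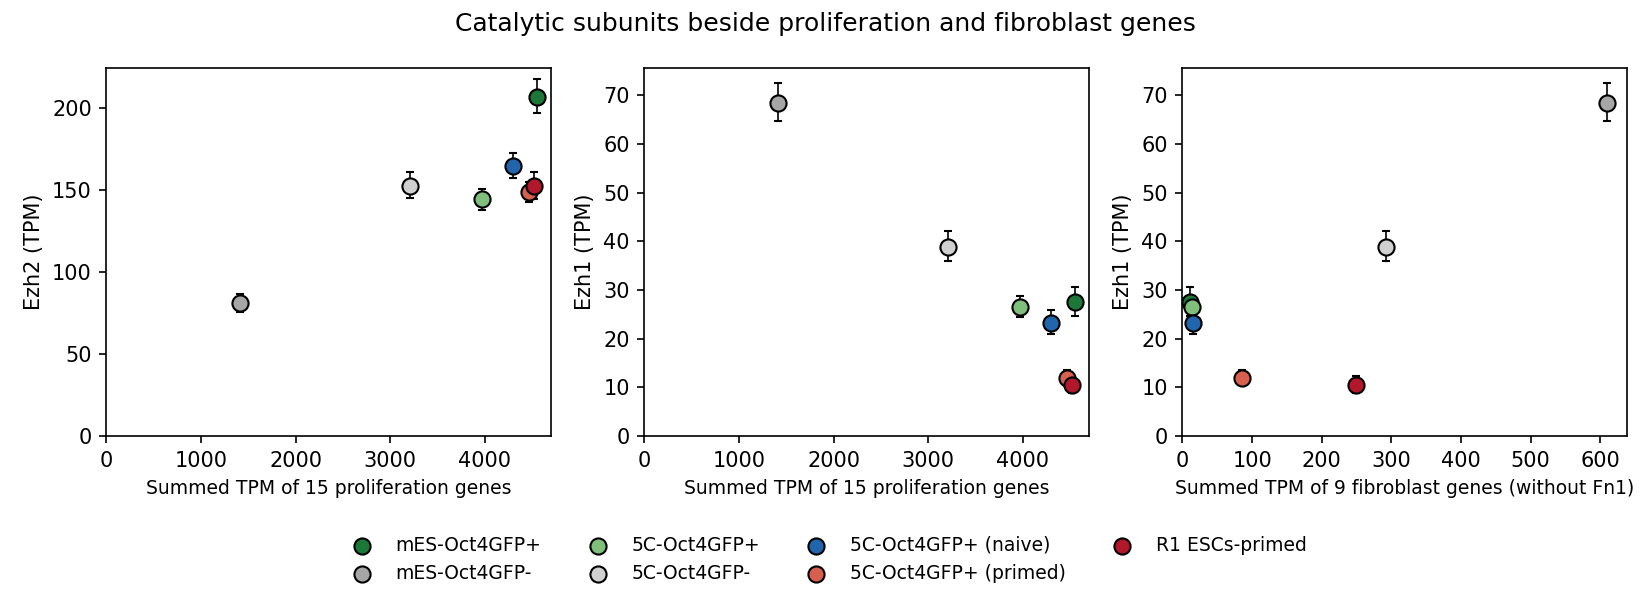
TPM of Ezh2 (left) and Ezh1 (middle and right) against the summed TPM of 15 proliferation genes or of 9 fibroblast genes without Fn1, 1 point a library, all axes from 0; vertical bars are exact 95% Poisson intervals. mES-Oct4GFP- lies apart, with 80.9 TPM of Ezh2, 68.5 of Ezh1 and 1409 of proliferation genes.

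The genes whose pattern over the 7 libraries was most like that of a member were listed by Pearson's r of log2(TPM + 1) among 11804 genes with at least 10 TPM in some library. With only 7 points that share their libraries, these values describe likeness and nothing else. For Ezh2 they were Casp8ap2 (0.99), Exosc1 (0.98), Tk1 (0.98), Gm21992 (0.98) and Polq (0.98), of which Tk1, a thymidine kinase, ran from 43.3 TPM in mES-Oct4GFP- to 167 in mES-Oct4GFP+. For Ezh1 they included Capn5, Pdpk1, Cdk19 and Mettl15, with r from 0.99 to 1.00, of which Capn5, a calpain protease, ran from 3.28 TPM in R1 ESCs-primed to 104 in mES-Oct4GFP-. For Jarid2 they were Crybg2 (0.99), Rpusd4 (0.98), Ss18 (0.97), Gnl3l (0.96) and Nufip1 (0.96), and all 5 were highest in 5C-Oct4GFP+.

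Exons of another annotated gene overlap those of 6 members, always on the opposite strand, and the library kit as named in the labels is not described as keeping strand, so reads from such overlaps could not be assigned by strand. The overlapping genes of Mtf2 and Rbbp7, Tmed5 and Txlng, were at 25.8 to 44.6 and 24.8 to 60.9 TPM. Those of Ezh2, Eed, Suz12 and Rbbp4 were at most 3.54 TPM in any library.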

How the data were processed

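Per the labels and the study's methods, total RNA was extracted with TRIzol, libraries were made with the TruSeq RNA kit and sequenced on a MiSeq, and the authors quantified genes with RSEM. The submitters' processing notes also name Bowtie and mm10. The deposited tables hold, for each of 7 libraries, estimated (expected) counts, TPM and FPKM for 29267 genes, of which 28756 had a symbol in the reference table. The deposited TPM were used as the main values, the deposited expected counts, rounded to whole numbers, for exact Clopper-Pearson and Poisson 95% intervals, and the deposited FPKM as an alternative. Library totals of 6108252 to 11496615 expected counts set the precision, and intervals cover counting error only. For shares wider than a pair of genes the counts were pooled, and those intervals are approximate.

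Groups were taken from the labels, with 1 library each, so no test was run. Differences are of log2(TPM + 1), a change was counted at 1.5-fold, and the background is every gene with at least 1 TPM in either library. Alternatives were a pseudocount of 0.1, no filter or at least 10 TPM, a 2-fold change, median-ratio rescaling between libraries, expected counts without a length term, and FPKM. Intervals and calls were tested on simulated Poisson counts, with the same length for a gene in both libraries. That setting leaves out the assignment of reads to genes and variation between libraries. All 9 members were named. Of each other list, counts were given with at most 4 genes of the largest difference among those with at least 5 TPM, all accessory subunits and demethylases could be named, and the 5 most similar genes were named for Ezh1, Ezh2 and Jarid2, except 1 that is not reported here. The members and gene lists were chosen with earlier results of these data known. Gene positions are from GENCODE on GRCm38 and promoters from RefSeq on GRCm38.p6, matched by symbol for all 9 members, and where RefSeq listed 2 starts (Jarid2 and Mtf2) the one nearest to the GENCODE start was used. Computations used scipy 1.17.1, pandas 2.3.3, numpy 2.4.6 and matplotlib 3.10.9 under Python 3.11.15.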

Additional observations from a re-analysis of the deposited data

Results flagged for a closer look

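For Ezh2 and Mtf2 the difference between the media had opposite signs in the sorted fractions. The log2 difference of Ezh2 between 5C and mES medium was -0.52 in Oct4GFP+ cells and 0.91 in Oct4GFP- cells, so the first minus the second was -1.43. For Mtf2 it was -0.85 in Oct4GFP+ cells and 0.35 in Oct4GFP- cells, and the first minus the second was -1.20. With 1 library in each group neither difference was tested.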

How the results depend on the processing

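No paired analysis was possible because each group had 1 library and the labels carry no replicate numbers, and for the same reason no library could be left out of a group. Depth limited Phf19 in mES-Oct4GFP+ and 5C-Oct4GFP+ (naive), where 2 counts and 1 count leave the intervals of its ratios wide. In this paragraph a value is the median member difference unless it is a count. At 2-fold, 5C-Oct4GFP- against mES-Oct4GFP- had 0 members higher and 0 lower, 5C-Oct4GFP+ against mES-Oct4GFP+ had 1 higher and 0 lower, and 5C-Oct4GFP+ (naive) against 5C-Oct4GFP+ had 0 higher. With at least 10 TPM, which leaves Phf19 out, mES-Oct4GFP+ against mES-Oct4GFP- was 1.09 with 1 lower, and primed against naive was -0.72 with 0 higher. Under median-ratio rescaling, counts without a length term and FPKM in turn, mES-Oct4GFP+ against mES-Oct4GFP- was 0.99, 0.98 and 0.96, 5C-Oct4GFP+ against 5C-Oct4GFP- was 1.25, 1.16 and 1.11, naive against 5C-Oct4GFP+ was 0.21, 0.25 and 0.16 with 2 higher in each, and primed against naive was -0.73, -0.47 and -0.61. Primed against 5C-Oct4GFP+ was -1.01 as counts without a length term. Rescaling moved the median of all genes from -0.25 to -0.05 in 5C-Oct4GFP+ against 5C-Oct4GFP-, and reversed Rbbp7 in primed against naive, at -0.03. As counts without a length term, in the library order mES-Oct4GFP+, mES-Oct4GFP-, 5C-Oct4GFP+, 5C-Oct4GFP-, naive, primed and R1 ESCs-primed, the Ezh1 share was 17.3%, 59.3%, 23.2%, 30.1%, 16.5%, 10.5% and 9.76%, and the Rbbp7 share was 43.4%, 56.2%, 47.4%, 49.7%, 42.5%, 50.9% and 52.4%. The other subunit shares were varied after the data had been seen. In the same order the share of Jarid2 in Jarid2 and Mtf2 was 38.3%, 74.5%, 67.3%, 67.8%, 34.6%, 71.1% and 68.1%, that of Jarid2 in Jarid2 and Aebp2 54.1%, 44.8%, 76.2%, 52%, 45.9%, 78.4% and 77.6%, and that of Phf1 among the Polycomb-like genes 2.9%, 31%, 4.46%, 22.7%, 2.43%, 7.53% and 7.75%. The share of Mtf2 among them was 97%, 64.5%, 85.4%, 69.8% and 97.5% in the first 5 of these libraries, and that of Jarid2 and Aebp2 in the sum of 5 genes was 80.8%, 69.8%, 73.9%, 53%, 73.3% and 70.6% in all but mES-Oct4GFP+. Leaving out length raises the share of genes with longer transcripts by construction. The other 230 medians, counts and shares under these alternatives stayed within counting error or, for counts, within 1.5 times. Of the differences of single members, 88 moved by more than counting error, among them small differences of Ezh2, Eed, Rbbp4 and Rbbp7 that changed sign, and 478 did not.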

Other observations

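Developmental regulators known as PRC2 targets in embryonic stem cells, 25 genes, differed between the libraries as well. Of the 13 with at least 1 TPM in 5C-Oct4GFP+ (primed) or 5C-Oct4GFP+, 8 were higher and 4 lower in the primed library, against 24.2% and 24.3% of all genes. That level was reached by 11 of the genes in the primed library and by 7 in 5C-Oct4GFP+. Some therefore passed the filter only through the library where they were higher, which fixed their direction. The largest differences were in regulators of mesoderm and endoderm: in 5C-Oct4GFP+ (primed) and R1 ESCs-primed Tbxt was at 155 and 374 TPM, Foxa2 at 82.9 and 106, Sox17 at 60.4 and 35.3, and Gata6 at 28.8 and 18.1, against, in the same order, 0.24, 0.25, 0.59 and 0.56 TPM in 5C-Oct4GFP+. The Oct4GFP- libraries differed from each other. Hand1 was at 42.6 TPM and Gata4 at 33.0 in mES-Oct4GFP- against 0.27 and 2.48 in 5C-Oct4GFP-, while Sox1 was at 2.38 against 15.5. Regulators high in the primed libraries were found there too. Sox17 was at 18.2 and 2.57 TPM and Gata6 at 10.5 and 2.10 in mES-Oct4GFP- and 5C-Oct4GFP-. Tbxt was at 26.6 TPM and Foxa2 at 6.22 in 5C-Oct4GFP-. In 5C-Oct4GFP+ against 5C-Oct4GFP-, 1 of 21 was higher and 19 were lower, against 14.7% and 35.5% of all genes. All 21 had at least 1 TPM in 5C-Oct4GFP-, but only 7 in 5C-Oct4GFP+. Most thus passed the filter only through the library where they were higher, so their direction was fixed by the filter. The levels of these regulators were not tested against those of the PRC2 members.

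Other complexes that hold RBBP4 or RBBP7 had members with a wider range than the chaperones themselves. Hat1, the histone acetyltransferase that pairs with RBBP7, was at 628 TPM in mES-Oct4GFP+, 622 in 5C-Oct4GFP+ (naive), 357 in 5C-Oct4GFP+, 230 in R1 ESCs-primed, 227 in 5C-Oct4GFP+ (primed), 149 in 5C-Oct4GFP- and 85.1 in mES-Oct4GFP-. Mta3, a subunit of the nucleosome remodelling and deacetylase complex, was highest in 5C-Oct4GFP+, the library with the most Jarid2, at 284 TPM, and between 70.6 and 130 in the other 6 libraries.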
